A study of Saccharomyces cerevisiae with 9 samples.

Results

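Trehalose is a glucose disaccharide that yeast stores and that is known to protect proteins and membranes when cells lose water. The genes described here are the 9 that make it, supply its precursors or break it down: TPS1, TPS2, TSL1, TPS3, NTH1, NTH2, ATH1, PGM2 and UGP1, with locus names YBR126C, YDR074W, YML100W, YMR261C, YDR001C, YBR001C, YPR026W, YMR105C and YKL035W in that order. They were chosen by name and function, and each was represented by the 1 probe set that the platform annotation assigned to it alone, so they were 9 of the 5656 genes with such a probe set, and 9 of the 9275 probe sets tested and 9335 on the array. RNA was measured on 9 one-colour Affymetrix Yeast S98 arrays, 3 for each of 3 groups of Saccharomyces cerevisiae. Commercial dry active yeast was a product whose strain the labels do not name. Its labels repeat the text on growing and drying BY4743, which was taken here not to describe the product, so how it was grown and dried is treated as unknown. Dried BY4743 was a laboratory yeast grown, as the control was, at 30 °C to an A600 of 0.8. It had been left to dry for 42 h and then kept for 72 h at a relative humidity of 20%. Control BY4743 was the same strain, grown in glucose-rich YPD medium at 30 °C to an A600 of 0.8, moved to diluted YPD and sampled before drying. BY4743 is a diploid of the S288C background that is known to carry deletions in URA3, LEU2 and HIS3, which dried and control cells share. No undried BY4743 group was held for the time that drying and storage took, so drying and elapsed time cannot be told apart, and commercial and BY4743 yeast differ in strain and in preparation together.

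Trehalose synthesis starts from glucose phosphate. Phosphoglucomutase, mainly Pgm2, turns glucose-6-phosphate into glucose-1-phosphate, and Ugp1 joins glucose-1-phosphate to UTP to give UDP-glucose, which also feeds glycogen and cell wall glucan. Tps1 transfers the glucose of UDP-glucose to glucose-6-phosphate, and Tps2 removes the phosphate to leave trehalose. Both sit in a complex with the large subunits Tsl1 and Tps3, which are related in sequence and regulate it. The neutral trehalases Nth1 and Nth2 split trehalose in the cytosol, while the acid trehalase Ath1 acts on trehalose outside the cell and in the vacuole. These are roles of the proteins, and only transcripts were measured.

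All 9 probe sets lay above background on all 9 arrays, where background is the signal that 95% of 28 absent-target control probe sets stay under (32.2 to 59.5 in normalized signal, by array). Signals are linear values after quantile normalization of the arrays, values after ± are SD over 3 arrays, and a change called higher or lower had a Benjamini-Hochberg adjusted p under 0.05 in limma over all 9275 probe sets. Signals of different probe sets are not compared, since each probe set has its own brightness. Array profiles correlated at 0.971 to 0.981 within groups. The URA3 probe set fitted the labels, at 365 ± 36.3 in commercial yeast and under background on all arrays of dried (1 ± 0, the floor) and control BY4743 (2.80 ± 0.398). LEU2, by its brightest probe set, read 382 ± 54.3 in commercial yeast, 29.7 ± 14.4 in dried BY4743, under background on all arrays, and 84.5 ± 11.4 in control BY4743, where it lay above background on all 3 arrays, against the genotype. The other LEU2 probe sets, both with shared probes, were under background on all arrays of dried and control BY4743. The labels do not say that replicate arrays hold RNA of separate cultures, and the p-values therefore cover only differences between these arrays, some of which may be technical. The number of arrays limits the precision of each value.

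Control probe sets gave a measure of RNA quality that moved with the groups. The log2 difference between the 3' and 5' probe sets of ACT1, actin, was 0.418 ± 0.0980 in commercial yeast, 1.40 ± 0.173 in dried BY4743 and -0.395 ± 0.274 in control BY4743. The same difference for SRB4 was 2.62 ± 0.400 in commercial yeast, 1.48 ± 0.0887 in dried BY4743 and 1.20 ± 0.271 in control BY4743. For SPT15 it was 1.99 ± 0.108, 1.63 ± 0.107 and 1.31 ± 0.0912 in the same order. SRB4 and SPT15 were thus highest in commercial yeast and ACT1 in dried BY4743. The part of these differences in the results that follow was not tested.

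Dried BY4743 was set against control BY4743 to ask how the transcripts of trehalose metabolism differed after drying. Of the 9 genes 5 were higher and 3 lower in dried cells and 1 did not pass the test, while 69.2% of all probe sets were called. By direction, 36.2% of all probe sets were higher and 33.0% lower. For 8 of the 9 genes all arrays of one group lay above all arrays of the other, as for 74.6% of all probe sets. The 3 trehalase genes were all higher, with the acid trehalase ATH1 at 10.3-fold. Both precursor enzymes, PGM2 and UGP1, were lower. The synthase complex was split: TPS1 and TSL1 were higher, TPS3 was lower and the phosphatase TPS2 gave no call. The median log2 change of the 9 genes was 0.48, against 0.04 over all probe sets. In such bulk RNA, fewer cells that hold a transcript and less of it per cell cannot be told apart. Spike-in scaling aligns arrays on the BioB, BioC, BioDn and CreX control probe sets. The labels do not say per what amount of RNA their targets were added, and the scaling is not read here as RNA per cell. With it the median of all probe sets was -0.29, and TPS1 and TSL1 turned to -0.06 and -0.10 with no call. Of the 9 genes 1 was then called higher and 3 lower, beside 1767 higher and 2989 lower of all 9275 probe sets.

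**Figure D1:**
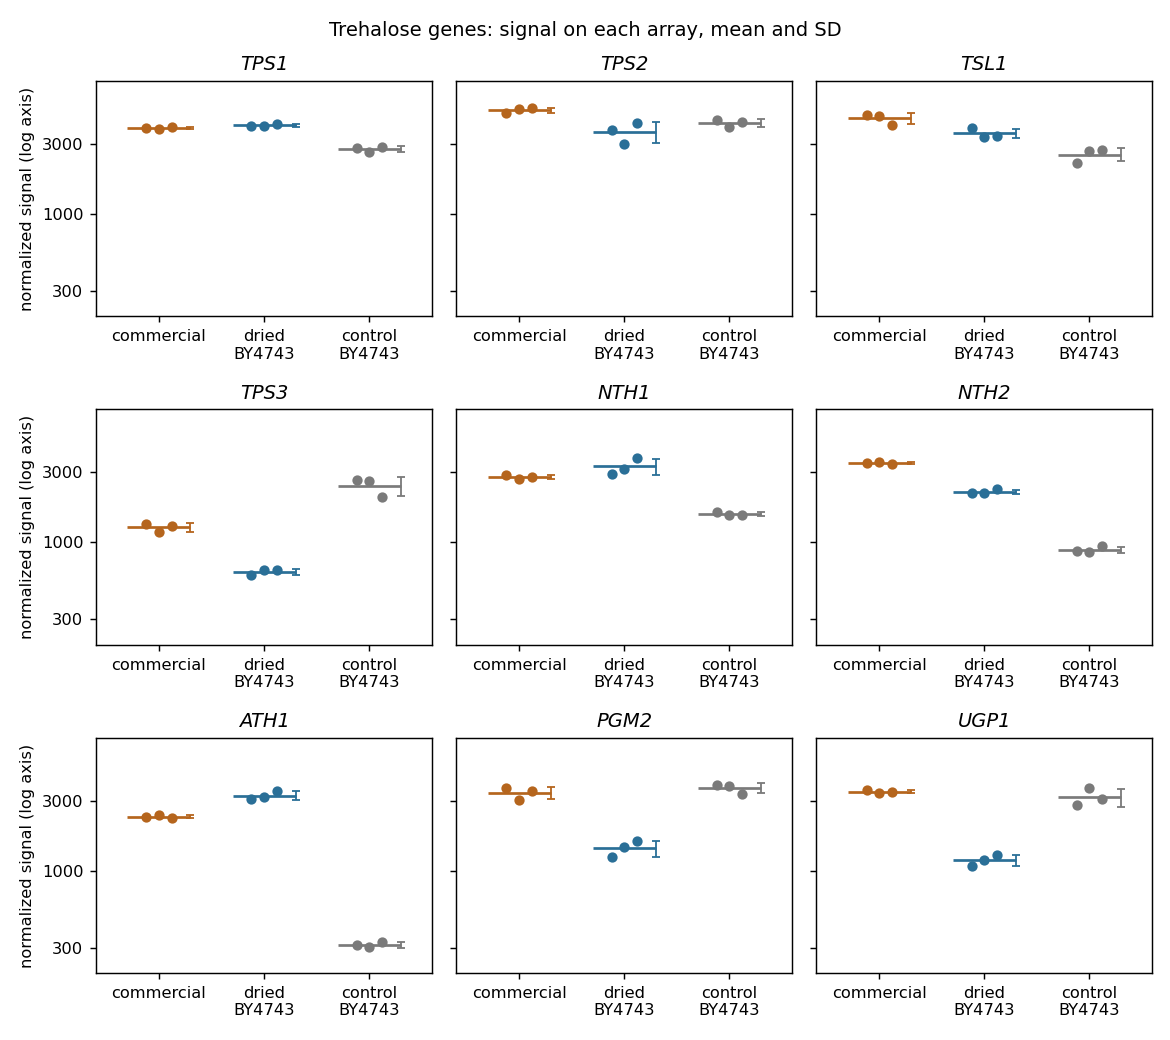
Normalized signal (vertical, log axis) of each of the 9 trehalose genes on each array of commercial yeast, dried BY4743 and control BY4743 (points, 3 per group), with the group mean (line) and SD (bar). ATH1 shows the widest gap, with dried BY4743 at 3091 to 3489.5 and control BY4743 at 301 to 329, and PGM2, UGP1 and TPS3 are lowest in dried BY4743.

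Commercial yeast was set against dried BY4743; the series is titled for a comparison of commercial dry yeast with this strain. Of the 9 genes 6 were higher and 1 lower in commercial yeast and 2 did not pass the test, while 66.5% of all probe sets were called, 33.1% higher and 33.5% lower. All 9 genes had arrays that did not overlap, as did 72.8% of all probe sets. The precursor enzymes UGP1 and PGM2 showed the largest differences of the 9, 2.93-fold and 2.39-fold higher, although with spike-in scaling ATH1 (-1.64) and NTH1 (-1.34) differed most and UGP1 and PGM2 gave no call. TPS3, TPS2, TSL1 and the neutral trehalase NTH2 were also higher, ATH1 was lower, and TPS1 and NTH1 gave no call. The median change of the 9 was 0.50 on the log2 scale, against 0.00 over all probe sets. With spike-in scaling, where the median of all probe sets was -1.10, 0 of the 9 were called higher and 3 lower. Of all 9275 probe sets, 819 were then called higher and 5387 lower. TPS2, TSL1, TPS3 and NTH2 then turned negative, at -0.37, -0.57, -0.40 and -0.44, with no call.

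Commercial yeast and control BY4743 differed in 6 of the 9 genes, 5 higher and 1 lower in commercial yeast, while 72.5% of all probe sets were called, 35.5% higher and 37.0% lower. Arrays did not overlap for 7 of the 9 genes and for 75.5% of all probe sets. The trehalases NTH1, NTH2 and ATH1 and the synthase genes TPS1 and TSL1 were higher in commercial yeast, and TPS3 was lower. TPS2, PGM2 and UGP1 gave no call. The median log2 change of the 9 was 0.48, against -0.01 over all probe sets. With spike-in scaling the median of all probe sets was -1.43, TPS1, TPS2, TSL1, NTH1 and UGP1 turned negative, and 1 gene, ATH1, was called higher and 6 lower. Of all 9275 probe sets, 814 were then called higher and 6070 lower. This comparison shares its arrays with both others, so the values of all the comparisons are given side by side and are not independent.

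**Figure D2:**
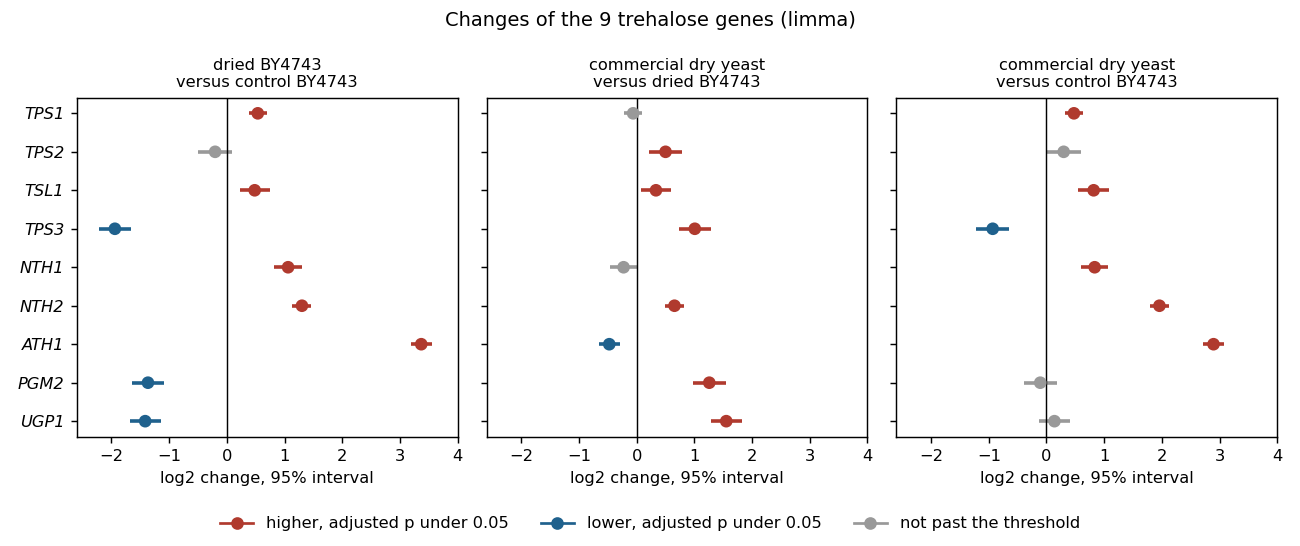
Log2 change of each of the 9 genes in each comparison (points) with its 95% interval (bars), red for higher, blue for lower and grey for no call at an adjusted p of 0.05. The trehalases lie right of 0 against control BY4743 in both dry yeasts, PGM2 and UGP1 lie well left of 0 in dried BY4743 against control BY4743, and with spike-in scaling TPS1 and TSL1 (dried against control), TPS2, TSL1, TPS3 and NTH2 (commercial against dried) and TPS1, TPS2, TSL1, NTH1 and UGP1 (commercial against control) turn negative.

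Among the synthase genes, TPS1, which makes trehalose-6-phosphate, read 3816, 3751 and 3917 in commercial yeast, 3961, 3936 and 4082 in dried BY4743 and 2799, 2614 and 2848 in control BY4743. Both dry yeasts lay above all control arrays, and every commercial array lay below every dried BY4743 array by a small margin. TPS1 was 1.45-fold higher in dried than in control BY4743 (log2 change 0.54, SE 0.07, adjusted p = 1.91e-04) and 1.39-fold higher in commercial yeast than in the control (log2 change 0.48, SE 0.07, adjusted p = 3.72e-04). Commercial and dried yeast gave no call, with a log2 change of -0.06 and a 95% interval of -0.22 to 0.10 (adjusted p = 0.46). The dried call was lost with arrays centred on their medians (log2 change 0.18, adjusted p = 0.193). Against dried BY4743, commercial TPS1 was called higher with the values as deposited (log2 change 0.25, adjusted p = 0.0266) and lower with spike-in scaling (-0.99, adjusted p = 0.0157), so no order of the dry yeasts is given.

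TPS2, the phosphatase of the complex, read 4856, 5174 and 5221 in commercial yeast, 3729, 2990.2 and 4151 in dried BY4743 and 4345, 3863 and 4204 in control BY4743. Dried and control arrays overlapped, while commercial arrays were above all others. Dried against control BY4743 gave a log2 change of -0.20 with a 95% interval of -0.49 to 0.09 (adjusted p = 0.186). That turned into a call with the values as deposited (log2 change -0.27, adjusted p = 0.0375) and with median centring (log2 change -0.45, adjusted p = 0.0106). TPS2 was 1.42-fold higher in commercial yeast than in dried BY4743 (log2 change 0.50, SE 0.13, adjusted p = 0.00824). Commercial against control BY4743 missed the threshold at 0.30 (95% interval 0.01 to 0.59, adjusted p = 0.0627) and passed it under 7 of 18 alternatives with the same sign, among them the values as deposited (0.60), while spike-in scaling called it lower (-1.05, adjusted p = 0.0129).

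TSL1, a large regulatory subunit, read 4717, 4637 and 4007 in commercial yeast, 3840.1, 3345 and 3403 in dried BY4743 and 2228, 2663 and 2698 in control BY4743. The groups did not overlap, with commercial yeast highest and control BY4743 lowest. TSL1 was 1.40-fold higher in dried than in control BY4743 (log2 change 0.48, SE 0.11, adjusted p = 0.00556), a call lost with the values as deposited (log2 change 0.32, adjusted p = 0.0702) and with median centring (0.13, adjusted p = 0.505). It was 1.76-fold higher in commercial yeast than in control BY4743 (log2 change 0.82, SE 0.11, adjusted p = 2.87e-04). The step between commercial and dried yeast was small (log2 change 0.33, SE 0.11, adjusted p = 0.0308), and its call was lost when commercial replicate 1 or 2 or dried replicate 2 or 3 was left out, with log2 changes of 0.28 to 0.32 and adjusted p of 0.0839 to 0.0918.

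TPS3, the other large subunit, read 1335, 1173 and 1282 in commercial yeast, 594, 644 and 645 in dried BY4743 and 2661, 2599.9 and 2016 in control BY4743. Its order was the reverse of that of TSL1 for the BY4743 groups: control arrays were highest, commercial arrays lay between, and dried arrays were lowest, with no overlap. TPS3 was 3.84-fold lower in dried than in control BY4743 (log2 change -1.94, SE 0.12, adjusted p = 2.60e-06), the largest fall among the 9 genes, and 89.4% of all probe sets had a higher change. It was 2.01-fold higher in commercial yeast than in dried BY4743 (log2 change 1.01, SE 0.12, adjusted p = 1.65e-04) and 1.91-fold lower than in the control (log2 change -0.93, SE 0.12, adjusted p = 1.99e-04).

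Of the trehalases, NTH1, the main neutral trehalase, read 2884, 2706 and 2765 in commercial yeast, 2919, 3159 and 3751 in dried BY4743 and 1615, 1541 and 1527 in control BY4743. Dry yeasts stood above the control without overlap, and the commercial arrays fell just under the dried ones. The change was 2.09-fold in dried over control BY4743 (log2 change 1.06, SE 0.10, adjusted p = 3.28e-05) and 1.78-fold in commercial yeast over the control (log2 change 0.84, SE 0.10, adjusted p = 1.37e-04). Commercial against dried BY4743 gave -0.23 with a 95% interval of -0.46 to 0.01 (adjusted p = 0.0829), which became a call without dried replicate 1 (log2 change -0.31, adjusted p = 0.0348) and with spike-in scaling (-1.34, adjusted p = 0.0026). With spike-in scaling the dried change over control BY4743 was 0.47 with no call (adjusted p = 0.274), and commercial NTH1 was called lower than the control (-0.86, adjusted p = 0.0323).

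NTH2, the paralogue of NTH1, read 3451, 3506 and 3416 in commercial yeast, 2149.8, 2148 and 2289 in dried BY4743 and 876, 858 and 938 in control BY4743. The 3 groups formed separate steps, commercial above dried and dried above control, with little scatter. NTH2 was 2.47-fold higher in dried than in control BY4743 (log2 change 1.30, SE 0.07, adjusted p = 1.20e-06). In commercial yeast it was 1.58-fold above dried BY4743 (log2 change 0.66, SE 0.07, adjusted p = 9.08e-05) and 3.88-fold above the control (log2 change 1.96, SE 0.07, adjusted p = 1.74e-07). With spike-in scaling the changes against control BY4743 kept their sign, at 0.83 for dried and 0.38 for commercial yeast, without a call.

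ATH1, the acid trehalase, read 2313, 2398 and 2284 in commercial yeast, 3091, 3152 and 3489.5 in dried BY4743 and 310.2, 301 and 329 in control BY4743. Control arrays lay far under both dry yeasts, and commercial arrays lay under all dried BY4743 arrays. ATH1 was 10.3-fold higher in dried than in control BY4743 (log2 change 3.37, SE 0.08, adjusted p = 2.97e-08), and 2.52% of all probe sets had a higher change. In commercial yeast it was 7.44-fold higher than in the control (log2 change 2.90, SE 0.08, adjusted p = 5.05e-08). Commercial yeast was lower than dried BY4743 by a smaller step (log2 change -0.47, SE 0.08, adjusted p = 9.80e-04). All 3 calls held under the 18 alternatives run, with log2 changes of 2.96 to 3.43, 1.32 to 2.97 and -1.64 to -0.38 for dried against control, commercial against control and commercial against dried yeast.

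Of the precursor enzymes, PGM2, the major phosphoglucomutase, read 3665, 3039.8 and 3465 in commercial yeast, 1233, 1439 and 1587 in dried BY4743 and 3840.1, 3768 and 3339 in control BY4743. Commercial and control arrays overlapped and all lay above the dried BY4743 arrays. PGM2 was 2.58-fold lower in dried than in control BY4743 (log2 change -1.37, SE 0.12, adjusted p = 2.17e-05) and 2.39-fold higher in commercial yeast than in dried BY4743 (log2 change 1.26, SE 0.12, adjusted p = 5.04e-05). Commercial against control BY4743 gave -0.11 with a 95% interval of -0.39 to 0.18 (adjusted p = 0.454).

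UGP1, which makes UDP-glucose, read 3557, 3399 and 3411 in commercial yeast, 1081, 1180.2 and 1280.0 in dried BY4743 and 2778, 3640.1 and 3061 in control BY4743. As for PGM2, dried BY4743 stood below the other groups, which overlapped. UGP1 was 2.67-fold lower in dried than in control BY4743 (log2 change -1.42, SE 0.12, adjusted p = 1.24e-05) and 2.93-fold higher in commercial yeast than in dried BY4743 (log2 change 1.55, SE 0.12, adjusted p = 1.21e-05). Against control BY4743 the commercial value was 0.14 with a 95% interval of -0.13 to 0.41 (adjusted p = 0.312). With spike-in scaling PGM2 and UGP1 were both called lower in commercial yeast than in control BY4743, at -1.63 and -1.42, next to a median of -1.43 over all probe sets, and their changes against dried BY4743 were 0.10 and 0.41 with no call.

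**Figure D3:**
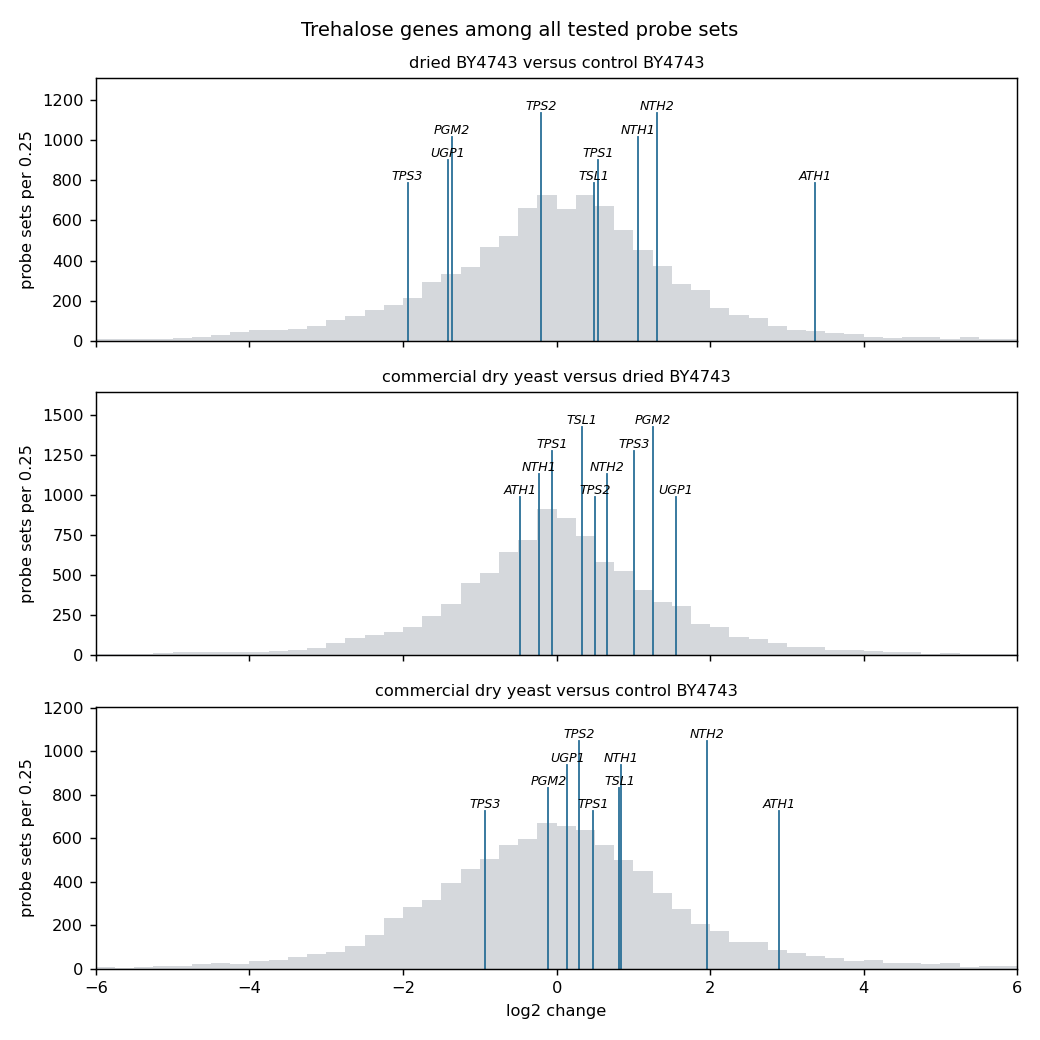
Histogram of log2 changes (horizontal) over all 9275 tested probe sets, in bins of 0.25 (vertical, probe sets per bin), with the 9 trehalose genes as blue lines, one panel per comparison. The genes spread across the bulk of the distribution, and ATH1 is the member furthest right in dried against control BY4743 (3.37) and in commercial yeast against the control (2.90), signs that hold under all 4 scalings.

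How alike the 9 profiles were was described by the root mean square difference between log2 signals over the 9 arrays, each gene centred on its own mean. PGM2 and UGP1, the consecutive steps to UDP-glucose, were the closest pair at 0.177, followed by TPS1 and TSL1 at 0.216 and by TPS1 and NTH1 at 0.235. TPS3 was nearer to PGM2 (0.354) and UGP1 (0.459) than to the other subunits of its complex, with TPS2 at 0.752, TPS1 at 1.02 and TSL1 at 1.04. ATH1 was furthest from TPS3, at 2.24. These are descriptions over 9 arrays that fall into 3 groups.

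Pairs of related genes were then compared by the difference of their changes. TSL1 and TPS3 moved apart: in dried against control BY4743 the change of TSL1 exceeded that of TPS3 by 2.42 (SE 0.22) on the log2 scale, and in commercial yeast against the control by 1.75 (SE 0.22). Between commercial and dried yeast the difference was -0.67 (SE 0.14), but -0.16 without quantile normalization (exact permutation test, adjusted p = 0.5). For the neutral trehalases, NTH2 minus NTH1 was 0.24 (SE 0.10) in dried against control BY4743, where the arrays overlapped. It was 0.88 (SE 0.09) in commercial against dried yeast and 1.12 (SE 0.06) in commercial against control yeast, with no overlap. PGM1, the minor phosphoglucomutase, read 47.4 ± 3.98 in commercial yeast, little above background on all 3 arrays, 111 ± 11.2 in dried BY4743 and 959 ± 65.3 in control BY4743. PGM2 minus PGM1 was 1.75 (SE 0.13) in dried against control, 2.48 (SE 0.11) in commercial against dried and 4.23 (SE 0.07) in commercial against control yeast. Other settings, apart from left-out arrays, gave 1.31 to 1.84, 1.95 to 2.48 and 3.26 to 4.23, in the same order. In the exact two-sided permutation test of these 9 differences, NTH2 minus NTH1 in dried against control BY4743 had p = 0.2 and the other 8 had p = 0.1, the smallest that 3 against 3 arrays allow (adjusted p = 0.2 and 0.1125), so no difference could pass 0.05.

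**Figure D4:**
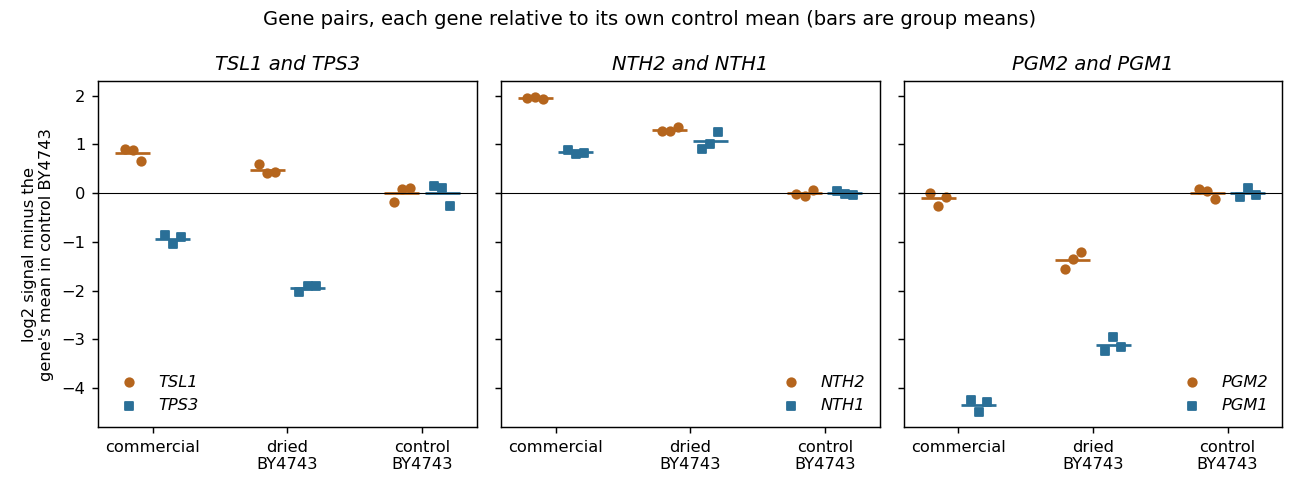
Log2 signal of each gene minus its own mean in control BY4743 (vertical) on each array of commercial yeast, dried BY4743 and control BY4743, for the pairs TSL1 and TPS3, NTH2 and NTH1, PGM2 and PGM1; bars are group means. TPS3 lies under 0 and TSL1 above it in both dry yeasts (TSL1 turns negative with spike-in scaling), and PGM1 lies at -4.48 to -4.25 in commercial yeast while PGM2 lies at -0.26 to 0.01.

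Genes around the pathway were listed by function and counted in the same fit. Of 6 genes that supply glucose phosphates, 4 were lower and 0 higher in dried against control BY4743, with a median log2 change of -2.08, where 33.0% of all probe sets were lower and 36.2% higher. HXK2, the main hexokinase on glucose, had 620.5 ± 91.4 in commercial yeast, 149 ± 19.8 in dried BY4743 and 3522 ± 587 in control BY4743, a log2 change of -4.56 (SE 0.16) in dried against control. PGM1 changed by -3.12, the glucokinase-like EMI2 by -2.70 and the hexokinase HXK1 by -1.46. GLK1, glucokinase, and PGI1, phosphoglucose isomerase, gave no call in any comparison with quantile normalization. With spike-in scaling both were called lower in commercial yeast, GLK1 at -0.88 and PGI1 at -1.001 against dried BY4743, and GLK1 at -1.19 and PGI1 at -1.44 against the control. Against dried BY4743, HXK2 (2.05), EMI2 (2.04) and HXK1 (1.19) were higher in commercial yeast and PGM1 (-1.22) lower. Against the control, HXK2 (-2.50), EMI2 (-0.66), HXK1 (-0.26) and PGM1 (-4.34) were lower in commercial yeast, HXK1 without a call with the values as deposited (-0.014, adjusted p = 0.923) and with median centring (-0.17, adjusted p = 0.336). With spike-in scaling 0 of the 6 were called higher and 3 lower in commercial yeast than in dried BY4743, and 0 higher and 6 lower than in the control. Over all 9275 probe sets that scaling called 819 higher and 5387 lower, and 814 higher and 6070 lower, in the same order.

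MAL11, also known as AGT1, encodes a proton symporter that takes up trehalose as well as maltose. It read 6328, 6214 and 6214 in commercial yeast, 459, 426 and 486 in dried BY4743 and 467, 704 and 713 in control BY4743. Commercial arrays lay far above both BY4743 groups. The log2 change was 3.78 (SE 0.16, adjusted p = 9.31e-07) over dried BY4743 and 3.34 (SE 0.16, adjusted p = 7.71e-07) over control BY4743, and it was called higher under each of the 4 scalings. Dried against control BY4743 gave -0.43 (adjusted p = 0.0431), a call lost with the values as deposited and with spike-in scaling. Related maltose transporter genes may share sequence with this probe set, and that was not tested.

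Of 8 other genes that draw on UDP-glucose, 3 were higher and 4 lower in dried against control BY4743 (median -0.41), beside 36.2% and 33.0% of all probe sets. In commercial against dried yeast 1 was higher and 4 lower (median -0.35), beside 33.1% and 33.5% of all probe sets. In commercial against control yeast 3 were higher and 5 lower (median -1.15), beside 35.5% and 37.0%. With spike-in scaling 0 were higher and 8 lower in commercial against dried yeast (median -1.66), and 1 higher and 5 lower in commercial against control yeast (median -2.84). Over all 9275 probe sets that scaling called 819 higher and 5387 lower, and 814 higher and 6070 lower, in the same order. The glucan synthase FKS1, by the brightest of its 8 probe sets, read 745 ± 117 in commercial yeast, 669 ± 17.2 in dried BY4743 and 5155 ± 236 in control BY4743. All 8 of its probe sets were lower in each dry yeast than in the control. Their log2 changes were -7.20 to -2.945 in dried and -7.57 to -2.80 in commercial yeast, and the brightest probe set changed least. Between commercial and dried yeast the FKS1 probe sets disagreed, with 3 higher and 1 lower. GSC2, the alternative form of FKS1, was read by the brightest of its 7 probe sets, which has shared probes and is so uncertain. It changed the other way, by 2.69 in dried and 2.72 in commercial yeast against the control. All 7 GSC2 probe sets were higher in each dry yeast than in the control. The sterol glucosyltransferase gene ATG26 was also higher, at 2.31 and 1.91. With spike-in scaling the commercial change of ATG26 was 0.26 with no call (adjusted p = 0.521). ALG5, which makes a glucosyl lipid for protein glycosylation, changed by -2.29 and -3.18. These sizes are uncertain: commercial ALG5 read 47.6 ± 4.65, little above background, and its control arrays scattered at 667, 215 and 559. Between commercial and dried yeast the glycogen primer genes GLG1 (-1.63) and GLG2 (-0.52) and ATG26 (-0.40) were lower in commercial yeast, and the glycogen synthase GSY2 (0.46) was higher, though -0.90 with spike-in scaling.

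Of 14 regulators listed, 13 had a probe set of their own. In dried against control BY4743 9 were higher and 2 lower (median 0.98), beside 36.2% higher and 33.0% lower over all probe sets. In commercial against dried yeast 2 were higher and 5 lower (median -0.18), beside 33.1% and 33.5% of all probe sets. In commercial against control yeast 9 were higher and 1 lower (median 0.73), beside 35.5% and 37.0%. HSF1, the heat shock transcription factor, changed by 2.13 in dried and 1.72 in commercial yeast against the control, and DCS2, a relative of the scavenger decapping enzyme DCS1, by 1.82 and 1.64. DCS1 changed by 1.20 in commercial yeast against the control. With spike-in scaling the commercial changes against the control were 0.059 for HSF1, 0.066 for DCS2 and -0.54 for DCS1, none called. MSN4, a stress transcription factor, read 146 ± 21.1 in commercial yeast, 158 ± 44.0 in dried BY4743 and 992 ± 49.4 in control BY4743, changes of -2.77 and -2.69 against the control. Its partner MSN2 read 1024 ± 65.3 in commercial yeast, 1464 ± 132 in dried BY4743 and 619 ± 31.3 in control BY4743, and with spike-in scaling it was called lower in commercial yeast than in the control (-1.02, adjusted p = 0.0156). BMH1, a 14-3-3 protein of the kind that binds and activates Nth1, changed by -1.33 (SE 0.14) in dried against control BY4743 and by 1.55 (SE 0.14) in commercial against dried yeast. TPK2, a catalytic subunit of protein kinase A, changed by 0.61 in commercial against dried yeast (negative with spike-in scaling). In the same comparison MSN2 and the kinase gene YAK1 changed by -0.51 and -0.49. YAK1 was read by the brightest of its 3 probe sets, which has shared probes. The call of that probe set was lost with the values as deposited (-0.43, adjusted p = 0.103) and with median centring (-0.40, adjusted p = 0.117). All 3 YAK1 probe sets changed by -0.85 to -0.45 with quantile normalization, and 2 were called lower. With spike-in scaling 3 of the 13 were called higher and 2 lower in dried against control BY4743, 0 higher and 11 lower in commercial against dried yeast, and 0 higher and 7 lower in commercial against control yeast. Over all 9275 probe sets that scaling called 1767 higher and 2989 lower, 819 higher and 5387 lower, and 814 higher and 6070 lower, in the same order.

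The genes with profiles most like those of the members were found among 5452 probe sets that name 1 other gene and lie above background on at least 1 array of every group, by the same root mean square difference over 9 arrays. ATH1 had XBP1 at 0.0437, CSR2 at 0.0841 and GAP1 at 0.109, and only 41 probe sets lay within 0.25 of it. XBP1 is a transcriptional repressor induced by stress and starvation, and GAP1 is the general amino acid permease. TPS1 had ADP1 at 0.0511, ZWF1 at 0.0718 and ATG5 at 0.0732, with 546 probe sets within 0.25. TPS2 had SMF2 at 0.0902, USA1 at 0.0919 and GEP4 at 0.0967, TSL1 had PEX6 at 0.0975, CYC3 at 0.108 and LDB19 at 0.113, and TPS3 had HOL1 at 0.0807, SUP45 at 0.0815 and LCB3 at 0.119. NTH1 had HMG2 at 0.0662, SDH2 at 0.0825 and RNY1 at 0.0850, and NTH2 had DCK1 at 0.0873, MPO1 at 0.0925 and YRR1 at 0.0951. PGM2 had RPS26A at 0.103, YDR444W at 0.117 and ECM16 at 0.124, of which RPS26A is read by a probe set with shared probes, and UGP1 had CHC1 at 0.123, SWI6 at 0.126 and ECM31 at 0.138.

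The scaling of the arrays set the zero line of all these changes. In dried against control BY4743 7 of the 9 genes kept their sign under all 4 scalings, in commercial against dried yeast 4, and in commercial against control yeast 3. Taken relative to the median change of all probe sets, 9, 8 and 9 genes kept their sign, in the same order. The values as deposited, median centring and spike-in scaling differ only by a constant per array, so relative to the median they give the same values. This second count therefore compares only values with and without quantile normalization. Among all probe sets called, the share that was higher with spike-in scaling was 37.2% in dried against control BY4743 (52.3% with quantile normalization), 13.2% in commercial against dried yeast (49.7%) and 11.8% in commercial against control yeast (49.0%).

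**Figure D5:**
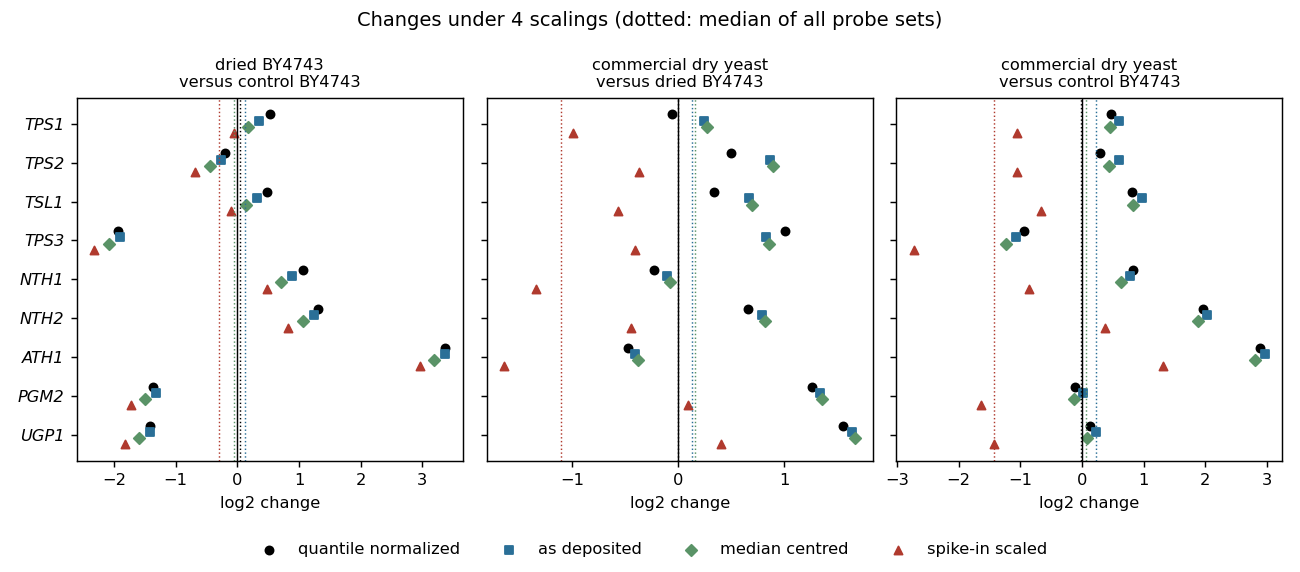
Log2 change (horizontal) of the 9 trehalose genes in each comparison under 4 scalings (symbols); dotted lines mark the median change of all probe sets under each. Spike-in scaling moves all 9 genes left together with the median of all probe sets (-0.29, -1.10 and -1.43), which turns the sign of TPS1 and TSL1 in dried against control BY4743, of TPS2, TSL1, TPS3 and NTH2 in commercial against dried yeast, and of TPS1, TPS2, TSL1, NTH1 and UGP1 in commercial against control yeast.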

How the data were processed

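RNA of 9 samples was hybridised to Affymetrix Yeast S98 arrays. Per the labels' protocols, Affymetrix GeneChip software analysed the images, and probe set signals passed a Wilcoxon test and a mixed linear model in 2 steps; versions are not given in the sources used here. For each sample the authors deposited 1 linear intensity per probe set and array, and the array means after trimming 2% at each end were nearly equal (500.2 to 500.3). Groups and replicate numbers came from the sample titles. Signals under 1 were raised to 1 and log2 was taken. Because the log2 array medians spanned 0.284, above a tolerance of 0.1, arrays were quantile normalized (limma 3.58.1, R 4.3.3). Tests leave out 60 control probe sets. One mean per group was fitted to all 9 arrays with lmFit and eBayes, with 6 residual and 1.64 prior degrees of freedom. Tests are two-sided, and 95% intervals come from the same fit. The fit was checked on simulated data in which far fewer probe sets changed than were called here. That check therefore does not cover changes as widespread as these. Arrays were not treated as paired by replicate number: same-numbered arrays of 2 groups correlated at -0.0401 to 0.0432 in their deviations from group means. With so few arrays per group, such values cannot exclude pairing. Exactly 1 gene was named by 6504 probe sets (symbols updated through RefSeq assembly R64), several by 328 and none by 2503; a gene with several is represented by its brightest. Neighbouring genes were named as the called genes with the largest changes, up to 4 per list and comparison, apart from GLK1, PGI1, and MSN2 against the control, named after their values were seen. The members and lists were chosen with earlier results of these data known. No genome build is given for the probes, so no coordinates or sequences are printed. Alternatives were other scalings, low-signal handling, filters, the replicate block and leaving out each array.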

Additional observations from a re-analysis of the deposited data

How the results depend on the processing

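With scaling to the 9 spike-in control probe sets, the trehalose genes called higher were 1 gene in dried against control BY4743 (3 with median centring, 5 in the reported fit), 0 in commercial against dried yeast (6 reported) and 1 in commercial against control yeast (5 reported). Called lower with it were 3 in commercial against dried yeast (1 reported) and 6 in commercial against control yeast (1 reported). Lower calls in dried against control BY4743 were 3 with it, as reported, and 4 with median centring or the deposited values, when TPS2 joined. Among all 9275 probe sets, spike-in scaling called 1767 higher and 2989 lower in dried against control BY4743. In commercial yeast it called 819 higher and 5387 lower against dried BY4743, and 814 higher and 6070 lower against the control. Leaving out 1 array gave 1 to 2 lower calls in commercial against dried yeast, with 2 without dried replicate 1, when NTH1 joined. Spike-in scaling reversed, in dried against control BY4743, TPS1 (-0.058) and TSL1 (-0.10); in commercial against dried yeast, TPS2 (-0.37), TSL1 (-0.57), TPS3 (-0.40) and NTH2 (-0.44); and in commercial against control yeast, TPS1 (-1.05), TPS2 (-1.05), TSL1 (-0.67), NTH1 (-0.86) and UGP1 (-1.42). TPS1 in commercial against dried yeast also reversed with the values as deposited (0.25) and with median centring (0.28), and PGM2 in commercial against control yeast reversed with the values as deposited (0.024). The cause was not tested. Of 486 alternative values for the 27 changes, 446 kept their direction and their side of the threshold. Filters, the replicate block, the background floor and a fit of only the 2 groups compared left each log2 change as it was. These settings could move only the adjusted p. The differences between TSL1 and TPS3, NTH2 and NTH1, and PGM2 and PGM1 kept their sign under the scalings (the values as deposited, median centring and spike-in scaling shift both genes of an array alike and give the same difference), low-signal settings, probe set filter, replicate block and left-out arrays run. The probe set filter and the replicate block cannot change these differences. With the replicate block, 5 genes were called higher in each comparison and 3, 1 and 1 lower in dried against control, commercial against dried and commercial against control yeast; TSL1 in commercial against dried yeast lost its call (log2 change 0.33, limma adjusted p = 0.0644). Whether the replicate numbers pair the arrays was not settled. Signal over background limited none of the 9 genes, and 3 arrays per group limit the precision.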
